A study of Mus musculus with 4 samples.

Results

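The transcripts described here encode 33 enzymes and carriers that are typical of hepatocytes: enzymes of the urea cycle, of amino acid breakdown, of glucose and fructose handling, and drug-metabolising enzymes. They were chosen by name, with the difference between the groups already known, so that difference is described here and not tested. All 33 genes, of 18193 genes on the arrays, had at least 1 probe set whose annotation names that gene alone, and together they had 44 such probe sets. The arrays were single-colour Affymetrix arrays hybridised with labelled cRNA from mouse heart, 4 in all. The 2 wild-type arrays hold heart RNA of C57B6 mice, and the 2 knock-in arrays hold heart RNA of C57B6 mice carrying GSK-3alpha S21A, in which serine 21 of the kinase GSK-3α is replaced by alanine. All mice were aged 3.6 months and studied at baseline. The labels do not say whether each array holds 1 animal or a pool, and do not tie the replicates to different mice, so p-values measure only the spread between these samples, which may be technical. Values are RMA signals on the log2 scale, and every difference is knock-in minus wild-type on that scale.

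The liver disposes of ammonia through the urea cycle, which runs from carbamoyl phosphate synthetase through ornithine transcarbamylase, argininosuccinate synthase and lyase to arginase. Hepatocytes also degrade aromatic amino acids and methionine, release glucose into blood, and oxidise drugs and steroids with cytochrome P450 enzymes. In the heart most of these enzymes have no established role, and the muscle uses other isozymes for glycogen synthesis and fatty acid binding. Hepatocyte promoters are known for binding the factors HNF1, HNF4 and C/EBP.

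The 250 bases upstream of 4 of these genes are shown to set the start regions of genes with large differences beside that of a gene with a small one. The first 3 belong to genes that were much higher in the knock-in hearts and the last, G6pc, to a gene that differed little. Sequences are from the RefSeq table of build GRCm38.p6, 5′ to 3′ on the gene's own strand, and capitals mark matches to the 4 motifs given below.

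Cyp3a11, chr5:145879855-145880104, minus strand: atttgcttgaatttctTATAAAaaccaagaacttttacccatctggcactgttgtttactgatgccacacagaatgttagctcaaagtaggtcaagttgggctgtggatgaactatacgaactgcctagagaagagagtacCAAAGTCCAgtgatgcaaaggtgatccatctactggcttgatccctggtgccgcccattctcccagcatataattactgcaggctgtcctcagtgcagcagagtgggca

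Fabp1, chr6:71199629-71199878, plus strand: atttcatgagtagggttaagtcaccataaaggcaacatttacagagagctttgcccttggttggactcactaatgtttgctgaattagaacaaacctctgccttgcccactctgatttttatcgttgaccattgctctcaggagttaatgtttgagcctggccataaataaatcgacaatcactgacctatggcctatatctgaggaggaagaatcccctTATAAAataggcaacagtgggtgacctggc

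Cyp2e1, chr7:140763569-140763818, plus strand: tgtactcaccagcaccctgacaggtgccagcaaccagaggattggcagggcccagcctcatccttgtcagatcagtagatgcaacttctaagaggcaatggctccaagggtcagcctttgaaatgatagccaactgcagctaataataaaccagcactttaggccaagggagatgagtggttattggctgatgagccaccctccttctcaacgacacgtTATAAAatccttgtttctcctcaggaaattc

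G6pc, chr11:101367466-101367715, plus strand: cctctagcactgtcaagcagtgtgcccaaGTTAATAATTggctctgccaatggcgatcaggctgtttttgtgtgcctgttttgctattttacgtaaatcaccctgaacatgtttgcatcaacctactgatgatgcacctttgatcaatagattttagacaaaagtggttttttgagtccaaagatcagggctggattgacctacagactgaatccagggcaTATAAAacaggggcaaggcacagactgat

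The motifs were searched as exact letters on both strands, and 26 of the 33 genes had 1 promoter each in the table. The TATA box letters TATAAA were found in 8 of 26 and in 12.4% of all 32851 promoters of the same length. They lay 30 to 25 bases before the start of Fabp1, 31 to 26 before Cyp2e1 and 29 to 24 before G6pc, whereas in Cyp3a11 they lay 234 to 229 bases upstream. The HNF4 letters CAAAGTCCA were found in Cyp3a11 and Cyp8b1 (0.384% of all promoters), the HNF1 letters (GTTAAT, any base, ATT) in G6pc (0.371%) and the C/EBP letters TTGCNCAA in Hgd (2.61%). No match overlapped another in the sequences printed. Bhmt, Cyp2f2 and Fbp1, which are not printed and differed by 2.11, 1.62 and 1.55, had no match to any of the 4 motifs. Fabp1 and G6pc share the TATA letters at nearly the same distance and differed by 3.06 and 0.15, and Cyp3a11 and Cyp8b1 share the HNF4 letters and differed by 3.22 and 0.11.

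Of the 33 genes 26 were higher in the knock-in hearts, beside 46.9% of all genes, with a median difference of 0.20 against −0.01 over all genes. In 19 of them both knock-in values lay above both wild-type values (22.5% of all genes), and 4 lay wholly below (24.1%). A difference of at least 1 was seen in 7 genes, Cyp3a11, Fabp1, Bhmt, Cyp2e1, Cyp2f2, Fbp1 and Cps1, beside 0.28% of all genes, and none differed by −1 or less (0.0165%). Counted over the 44 probe sets, 35 were higher (41.4% of all probe sets) and 22 lay above with no overlap (18.5%). The count of higher genes was 26 to 29 under the 3 other scalings of the arrays and 23 to 28 with 1 array left out, and the median difference then lay between 0.16 and 0.40. Since the genes were chosen on this contrast, nothing further is read from these shares. A bulk array does not tell more cells of a type from more RNA per cell, here as in what follows.

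**Figure D1:**
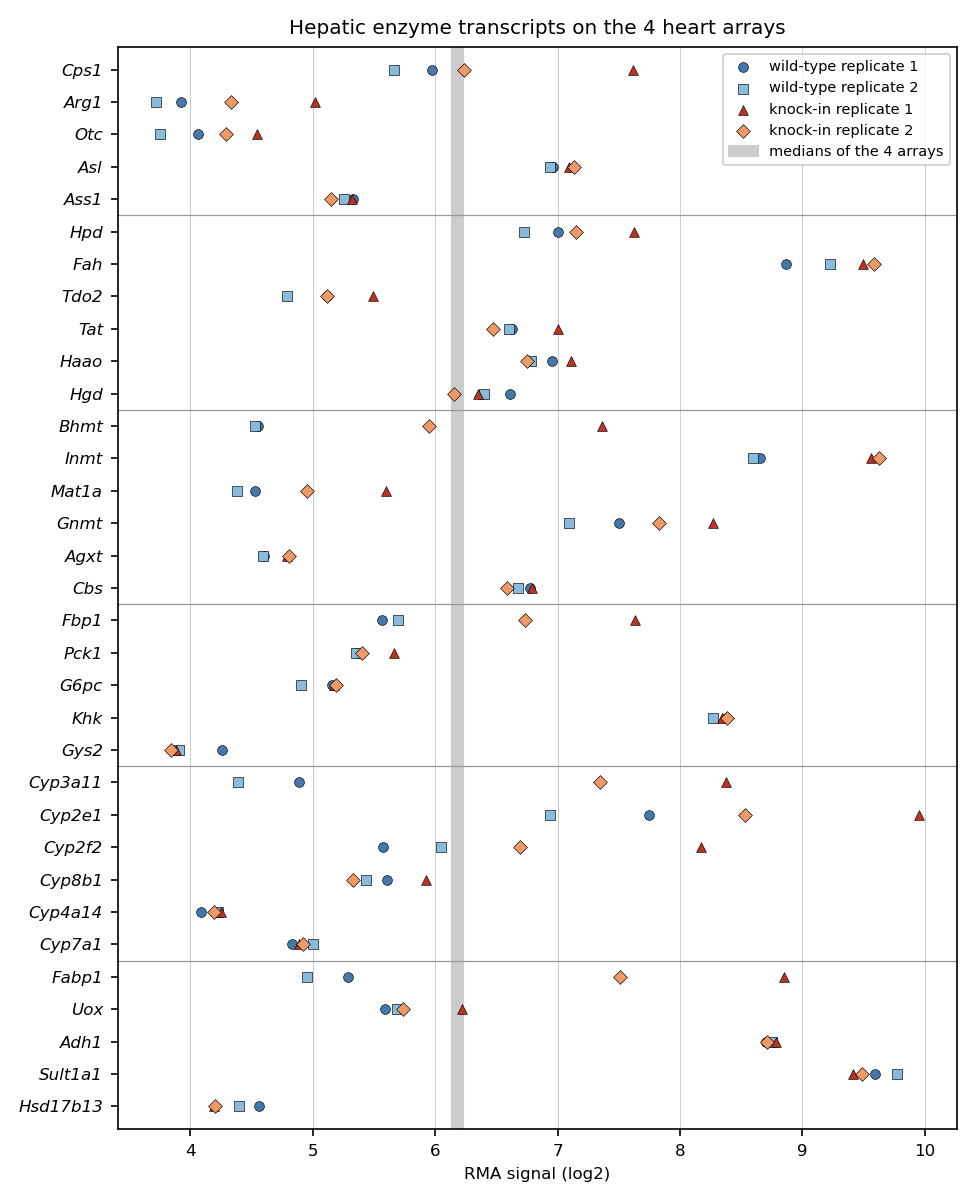
RMA signal (log2, x axis) of each of the 33 genes (y axis, grouped by role) on each of the 4 arrays, with the medians of the arrays (6.14 to 6.23) as a grey band. In Cyp3a11, Fabp1, Bhmt and Fbp1 both knock-in points stand clear of both wild-type points, with knock-in replicate 1 to the right of replicate 2, while Khk, Adh1, Cyp7a1 and Cyp4a14 have all 4 points close together.

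Limma, fitted over 45037 probe sets, called 3 higher (0.00666%) and 0 lower (0%). By gene these were 2 higher (0.011%) and 0 lower (0%), and none was among the 33. At an unadjusted p under 0.05, 14 of the 33 were higher and 1 lower. Over all 18193 genes 992 were higher and 866 lower, together 10.2%. That share is the background for the unadjusted counts of every list below, and counts near it are not read as a result. By limma 1 of the Fabp1 probe sets was called without knock-in replicate 2, and that of Cyp3a11 after the arrays were shifted to 1 median. In 20 of the 33 genes both wild-type values lay below the array medians, where a signal can be mostly background, so folds are given only for the 13 genes whose wild-type values both lay above them. Cardiomyocyte markers were bright on every array, with medians from 14.47 to 14.61, as the label heart requires.

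Among the urea cycle enzymes the first and last steps differed most. Cps1, the mitochondrial carbamoyl phosphate synthetase that commits ammonia to the cycle, read 5.97 and 5.66 on wild-type replicates 1 and 2 and 7.62 and 6.24 on knock-in replicates 1 and 2. Both knock-in values were above both wild-type values, but replicate 2 only by a small margin. Cps1 differed by 1.11 (standard error 0.40), by 0.42 without knock-in replicate 1 and by 1.80 without replicate 2. Arg1, liver arginase, which splits arginine into urea and ornithine, read 3.93 and 3.72 in wild-type and 5.02 and 4.34 in knock-in hearts. All 4 Arg1 values lay below the array medians, and the groups did not overlap, with a difference of 0.85 and a standard error of 0.22. Otc, ornithine transcarbamylase, read 4.07 and 3.75 against 4.54 and 4.29, a difference of 0.51, while its other probe sets lay at 0.05 and 0.16.

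The middle steps of the cycle differed less. Asl, argininosuccinate lyase, read 6.97 and 6.94 in wild-type and 7.10 and 7.13 in knock-in hearts, a difference of 0.16 (95% interval −0.09 to 0.41). Ass1, argininosuccinate synthase, read 5.33 and 5.26 against 5.32 and 5.15. Its difference was −0.06 (−0.34 to 0.22), and it turned to between 0.00 and 0.06 under the 3 other scalings. Both of these enzymes also make arginine outside the liver.

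Of 8 other genes that feed or flank the cycle, 5 lay above wild-type and 3 below (median difference 0.12), and limma called 0 of them, while 1 passed 0.05 upward and 0 downward before adjustment. Glud1, the glutamate dehydrogenase that releases ammonia, differed by 0.30, Slc25a13, a mitochondrial aspartate–glutamate carrier, by 0.20, Slc25a15, the mitochondrial ornithine carrier, by 0.16 and Arg2, the mitochondrial arginase, by −0.23. By their other probe sets Glud1 lay at 0.22, Slc25a15 at −0.22 and Arg2 at −0.02. Arg2 lay below the array medians on all 4 arrays, and the list median turned to −0.07 when each gene's probe sets were averaged.

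In tyrosine breakdown Hpd and Fah were higher with no overlap, as was Gstz1 among the other genes of the pathway. Hpd, 4-hydroxyphenylpyruvate dioxygenase, read 7.002 and 6.73 in wild-type and 7.62 and 7.15 in knock-in hearts, 1.44-fold higher (log2 difference 0.52, 95% interval 0.08 to 0.96). Fah, fumarylacetoacetate hydrolase and the last step of the pathway, read 8.87 and 9.23 against 9.50 and 9.58, which is 1.41-fold higher (0.49, 0.15 to 0.84). Unlike Hpd, Fah was as high on knock-in replicate 2 as on replicate 1. Tat, tyrosine aminotransferase and the first step, read 6.63 and 6.60 against 7.002 and 6.47, so that knock-in replicate 2 was the lowest of the 4, and the difference of 0.12 turned to −0.14 without knock-in replicate 1. Hgd, homogentisate dioxygenase, differed by −0.25 by its brighter probe set (6.61 and 6.40 against 6.35 and 6.16) and by 0.26 by its other probe set, so its direction is not settled.

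For tryptophan the probe sets of 1 gene disagreed in size. Tdo2, the liver tryptophan dioxygenase that opens the kynurenine pathway, gave 5.11 and 4.79 (wild-type) and 5.49 and 5.11 (knock-in) by its brightest probe set, with a difference of 0.35. A dimmer Tdo2 probe set read 4.14 and 4.07 against 6.88 and 5.06, a difference of 1.87 with a standard error of 0.51, and the third lay at 0.19. Haao, which makes quinolinate further down the pathway, read 6.96 and 6.79 against 7.11 and 6.75. The Haao difference was 0.06, and it turned to −0.12 without knock-in replicate 1 and to −0.03 without wild-type replicate 2.

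Of 22 further genes of amino acid breakdown, 11 lay above wild-type and 11 below (median difference 0.01), and limma called 0, while 2 passed 0.05 upward and 0 downward before adjustment. Grhpr, which reduces glyoxylate, differed by 0.33, and Gstz1, the maleylacetoacetate isomerase just before Fah, by 0.29. Hal, the histidine ammonia-lyase of liver and skin, differed by 0.20 and Agxt2 by −0.19. The list median turned to −0.05 without knock-in replicate 1 and to −0.03 without wild-type replicate 2.

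Of 6 enzymes of methionine, methyl groups and glyoxylate 5 were higher, with a median of 0.78. Bhmt, which remethylates homocysteine with betaine and is almost restricted to liver and kidney, read 4.55 and 4.53 in wild-type and 7.36 and 5.95 in knock-in hearts. The wild-type values were nearly equal and the knock-in values were far apart, with a difference of 2.11 and a standard error of 0.40. Mat1a, the liver methionine adenosyltransferase, read 4.53 and 4.38 against 5.60 and 4.95, a difference of 0.82. Gnmt, which disposes of excess methyl groups onto glycine, read 7.50 and 7.10 against 8.27 and 7.83 and was 1.68-fold higher (0.75, 95% interval 0.28 to 1.22).

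Inmt, a methyltransferase of small indole amines, differed in another way. It read 8.65 and 8.59 in wild-type and 9.56 and 9.63 in knock-in hearts, so both groups were tight and knock-in replicate 2 was the higher. Its difference of 0.97 had a standard error of 0.11 and stayed between 0.89 and 1.03 under every alternative run. Agxt, which detoxifies glyoxylate in liver peroxisomes, read 4.60 and 4.59 against 4.79 and 4.81, a difference of 0.20. Cbs, cystathionine beta-synthase, read 6.78 and 6.68 against 6.79 and 6.59, and its difference of −0.03 turned to between 0.01 and 0.03 under median shifting and cyclic loess. By its other probe set Cbs lay at 0.08.

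Of 12 other genes of methionine and one-carbon metabolism, 8 lay above wild-type and 4 below (median difference 0.19), and limma called 0, while 4 passed 0.05 upward and 1 downward before adjustment. Cth, the step after Cbs, read 5.56 and 5.19 in wild-type and 6.98 and 6.67 in knock-in hearts, a difference of 1.45 (95% interval 1.05 to 1.86). Shmt1, the cytosolic serine hydroxymethyltransferase, differed by 0.80 by its brightest probe set and by 0.07 to 0.29 by its others. Aldh1l1, the folate dehydrogenase, lay at 0.50 and by its other probe set at −0.07, and Dmgdh, which demethylates dimethylglycine, at −0.37. As in Inmt, the knock-in values of Shmt1 were highest on replicate 2 (7.71 and 8.06 against 7.06 and 7.12).

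Among genes of glucose, fructose and glycogen, Fbp1 stood apart from the other members. Fbp1, the liver fructose 1,6-bisphosphatase of gluconeogenesis, read 5.57 and 5.70 in wild-type and 7.64 and 6.74 in knock-in hearts. Both knock-in values were above both wild-type values by at least the wild-type gap, and the difference was 1.55 with a standard error of 0.27. Pck1, the cytosolic phosphoenolpyruvate carboxykinase, read 5.36 and 5.35 against 5.66 and 5.40, a difference of 0.18. Its other probe sets lay at 0.76 and −0.14, so the size for Pck1 depends on the probe set. G6pc, glucose-6-phosphatase, which releases free glucose, read 5.16 and 4.91 against 5.18 and 5.19, a difference of 0.15.

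The remaining members of that class did not separate the groups upward. Khk, ketohexokinase, which phosphorylates fructose, read 8.37 and 8.27 against 8.34 and 8.38, a difference of 0.04 that turned to −0.03 after quantile normalisation and −0.01 after cyclic loess. Gys2, the liver glycogen synthase, read 4.26 and 3.91 against 3.88 and 3.85, a difference of −0.22 at a level far below the array medians. Of 13 further genes of sugar handling, 12 lay above wild-type and 1 below (median difference 0.08), and limma called 0, while 1 passed 0.05 upward and 0 downward before adjustment. Pygl, the liver glycogen phosphorylase, differed by 0.82, Pcx, pyruvate carboxylase, by 0.17, Slc2a2, the liver glucose transporter GLUT2, by 0.15 and Gys1, the muscle glycogen synthase, by 0.25.

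**Figure D2:**
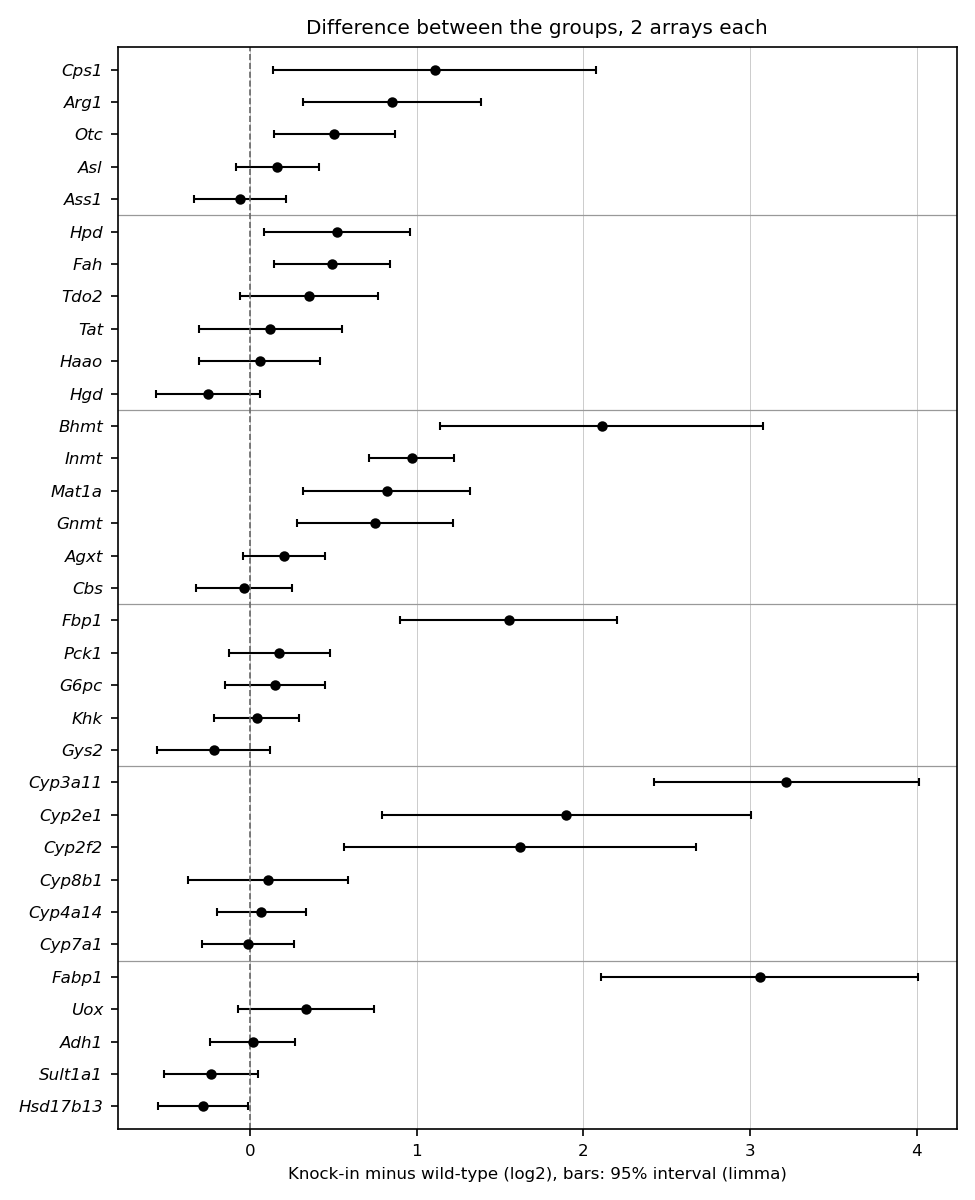
Knock-in minus wild-type difference (log2, x axis) of each of the 33 genes (y axis, grouped by role), with bars for the 95% interval of the limma fit, 2 arrays a group. Cyp3a11 at 3.22 and Fabp1 at 3.06 lie farthest to the right, and the lowest is Hsd17b13 at −0.28.

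The cytochrome P450 genes held both the largest difference and some of the smallest. Cyp3a11, a broad drug-oxidising enzyme of liver and gut, read 4.89 and 4.39 in wild-type and 8.37 and 7.34 in knock-in hearts. The wild-type values were below the array medians and the knock-in values well above, with a difference of 3.22 and a standard error of 0.33, the fourth highest of all genes. Cyp2e1, which oxidises ethanol and small solvents, read 7.75 and 6.94 against 9.95 and 8.53. It was 3.73-fold higher (log2 difference 1.90, 95% interval 0.79 to 3.01), and its wild-type values were themselves apart by 0.80.

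Cyp2f2, an enzyme of periportal hepatocytes and of the club cells of lung airways, read 5.58 and 6.05 in wild-type and 8.17 and 6.70 in knock-in hearts, a difference of 1.62 with a standard error of 0.44. Unlike Cyp2e1 and Cyp3a11, it was higher on wild-type replicate 2 than on replicate 1. The club cell marker Scgb1a1 read 4.98 and 6.70 in wild-type and 7.16 and 5.77 in knock-in hearts, also higher on wild-type replicate 2 and knock-in replicate 1, and its part in the Cyp2f2 result was not tested. The other lung markers, Sftpc, Sftpb and Sftpa1, differed by −0.30, −0.04 and −0.02.

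Both bile acid P450s were close between groups. Cyp7a1, the rate-limiting enzyme of bile acid synthesis, read 4.83 and 5.01 against 4.89 and 4.92, with a difference of −0.01 that turned to between 0.05 and 0.10 under the 3 other scalings. Its other probe set lay at −0.26. Cyp8b1, which sets the share of cholic acid, read 5.61 and 5.44 against 5.93 and 5.33, and its difference of 0.11 turned to −0.19 without knock-in replicate 1. Cyp4a14, a fatty acid hydroxylase induced through PPARα, read 4.09 and 4.22 against 4.26 and 4.19, a difference of 0.07 (95% interval −0.20 to 0.33).

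Of 26 other P450 genes, 19 lay above wild-type and 7 below (median difference 0.25), and limma called 0, while 6 passed 0.05 upward and 3 downward before adjustment. Cyp3a25, a relative of Cyp3a11, read 4.30 and 3.88 in wild-type and 6.66 and 4.69 in knock-in hearts, a difference of 1.58. Cyp2d9 differed by 0.83, Cyp2c29 by 0.73 and Cyp2d26 by 0.66, and probe sets of such close relatives may take up each other's RNA. In 23 of the 26 knock-in replicate 1 was above replicate 2. The list medians were 5.45 and 5.28 on the wild-type arrays and 5.98 and 5.37 on the knock-in arrays, so that knock-in replicate 2 lay between the wild-type arrays.

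Of 29 genes of conjugation and other drug metabolism, 17 lay above wild-type and 12 below (median difference 0.07), and limma called 0, while 7 passed 0.05 upward and 1 downward before adjustment. Ugt2b5, a glucuronosyltransferase, differed by 1.96, Akr1c6, a hydroxysteroid dehydrogenase, by 0.91, Ces1c, a carboxylesterase, by 0.87 and Ugt2b1, another glucuronosyltransferase, by 0.83. Of 16 genes of bile acid synthesis and transport, 10 lay above wild-type and 6 below (median difference 0.02), and that median turned to −0.02 after quantile normalisation, to −0.06 without wild-type replicate 2 and to −0.03 without knock-in replicate 1. Limma called 0 of these 16, while 0 passed 0.05 upward and 0 downward before adjustment. Their farthest values were −0.26 for the uptake carrier Slco1a4, −0.25 for the sterol exporter Abcg8, 0.23 for the bile acid importer Slc10a1 and 0.21 for the bile salt export pump Abcb11.

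Fabp1, the fatty acid binding protein of liver and gut, read 5.29 and 4.95 in wild-type and 8.85 and 7.51 in knock-in hearts. The groups were far apart, with a difference of 3.06 and a standard error of 0.40, and its second probe set (4.21 and 4.17 against 8.43 and 6.60) lay at 3.33. Uox, the urate oxidase of liver peroxisomes, read 5.59 and 5.69 against 6.22 and 5.74, a difference of 0.34 that was 0.10 without knock-in replicate 1. Adh1, the class I alcohol dehydrogenase, was bright in all hearts and read 8.71 and 8.75 against 8.78 and 8.71, with a difference of 0.02 that turned to −0.07 after quantile normalisation and −0.05 after cyclic loess.

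Sult1a1 and Hsd17b13 were lower with no overlap. Sult1a1, a phenol sulfotransferase, read 9.59 and 9.77 in wild-type and 9.41 and 9.49 in knock-in hearts, a difference of −0.23 (95% interval −0.51 to 0.05). Hsd17b13, a dehydrogenase on hepatocyte lipid droplets, read 4.56 and 4.40 against 4.19 and 4.20, a difference of −0.28 at a dim level, and its other probe set lay at 0.08.

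The plot of levels by array shows that the knock-in arrays were unequal. Knock-in replicate 1 was above replicate 2 in 24 of the 33 genes, beside 41.5% of all genes, and by at least 1 in 6 of them, beside 0.258% of all genes. In the 7 genes with a difference of at least 1 the gap between the knock-in arrays ran from 0.90 for Fbp1 to 1.48 for Cyp2f2. In the other members it ran from −0.09 for Fah to 0.68 for Arg1. Knock-in replicate 2 alone was above both wild-type arrays in 20 of the 33 genes (39.2% of all genes), and replicate 1 in 26 (29.8%).

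The excess over the wild-type mean was also taken on the linear scale, for the 4 genes with a difference above 1 and a knock-in mean above the median of all genes, 7.33. Knock-in replicate 2 held 44.8% of the excess of replicate 1 for Cyp3a11, 34.5% for Fabp1, 24.6% for Cyp2e1 and 20.2% for Cyp2f2. That choice leaves out Bhmt, Fbp1 and Cps1, which differed by more than 1 but had a knock-in mean below 7.33. On replicates 1 and 2 their excess was 141 and 38, 149 and 57, and 140 and 19 in linear signal units. The choice also leaves out genes with smaller differences. Among them are Inmt, whose excess was 360 and 397 on replicates 1 and 2, and Fah, with 190 and 234. On the log2 scale Inmt, Fah and Asl did not share the inequality, with replicate 1 minus replicate 2 at −0.07, −0.09 and −0.03. The wild-type arrays were closer to each other, with replicate 1 above replicate 2 in 25 of the 33 genes (59.1% of all genes) and a median gap of 0.10 against 0.04 over all genes. The widest wild-type gap, 0.80, was that of Cyp2e1.

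**Figure D3:**
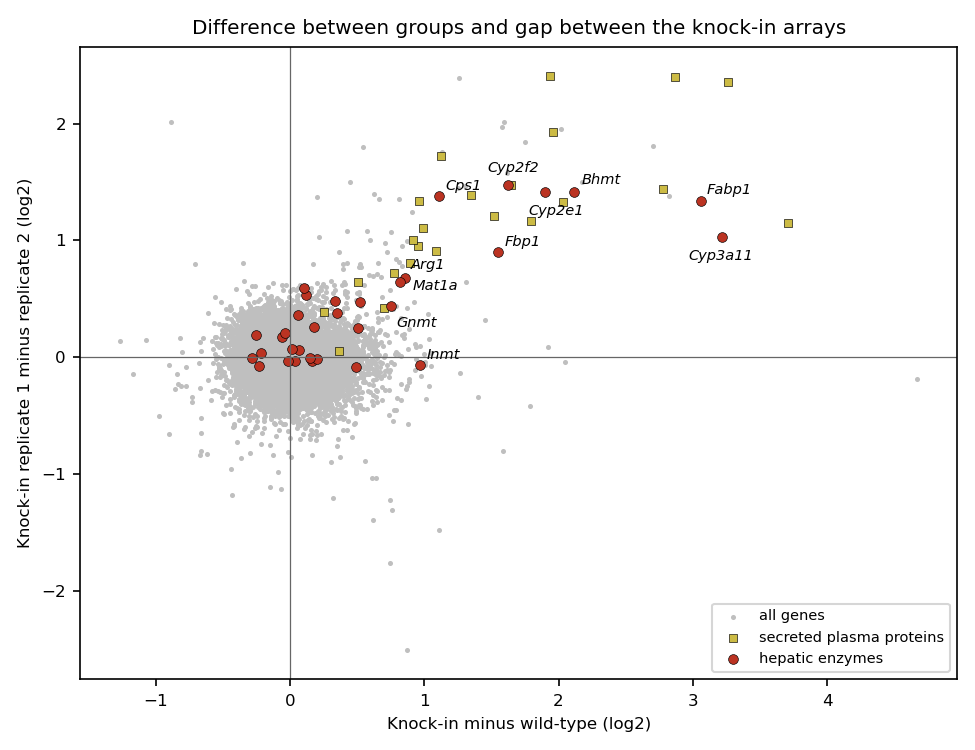
Knock-in minus wild-type difference (log2, x axis) against knock-in replicate 1 minus replicate 2 (log2, y axis) for all 18193 genes (grey), 23 secreted plasma protein genes (yellow squares) and the 33 hepatic enzymes (red circles). The 7 enzymes with a difference of at least 1 lie between 0.90 and 1.48 on the y axis, whereas Inmt lies at 0.97 on the x axis and −0.07 on the y axis.

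Liver isozymes and their partners in heart or most tissues were set side by side for 9 of 12 pairs, whose other 3 lacked a probe set naming 1 of the genes alone. Fabp1 differed by 3.06, while Fabp3, the heart fatty acid binding protein, read 14.49 and 14.42 in wild-type and 14.57 and 14.53 in knock-in hearts, with a difference of 0.10 (95% interval −0.15 to 0.35) and −0.45 by its other probe set. Fbp1 differed by 1.55 and Fbp2, the muscle isozyme, by 0.10 (−0.32 to 0.51). Arg1 differed by 0.85 and Arg2 by −0.23 (−0.50 to 0.05). Pygl differed by 0.82 and Pygm, the muscle phosphorylase, by 0.13 (−0.14 to 0.40).

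In the Gys2 and Adh1 pairs the partner had the higher difference by its brightest probe set, and in the remaining pairs the liver isozyme did. Gys2 differed by −0.22 and Gys1 by 0.25 (95% interval −0.09 to 0.59), and Adh1 by 0.02 and Adh5, the widely expressed class III enzyme, by 0.21 (−0.05 to 0.46). By their other probe sets Gys1 lay at 0.04, still above Gys2, and Adh5 at −0.24, below Adh1. For Pck1 and Pck2, the mitochondrial isozyme, the differences were 0.18 and 0.09, for G6pc and the ubiquitous G6pc3 they were 0.15 and 0.06, and for Pklr, liver and red cell pyruvate kinase, and Pkm, the muscle form, 0.07 and 0.02. Other probe sets of Pklr lay at −0.15 and −0.12, below Pkm, and those of Pck1 on both sides of Pck2. The difference within a pair was not tested.

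**Figure D4:**
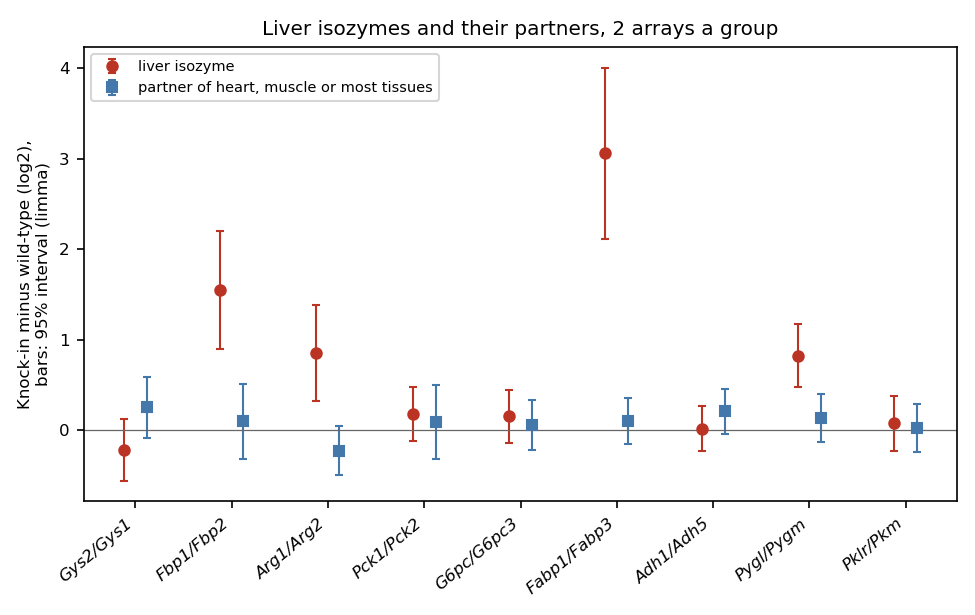
Knock-in minus wild-type difference (log2, y axis) of liver isozymes (red circles) and of their partners (blue squares) for 9 pairs (x axis), with bars for the 95% interval of the limma fit, 2 arrays a group. Fabp1 at 3.06 and Fbp1 at 1.55 stand above Fabp3 and Fbp2, both at 0.10, while Gys2 at −0.22 lies below Gys1 at 0.25.

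The transcription factors that drive hepatocyte genes lay on both sides of 0. Of 14 measured, 6 lay above wild-type and 8 below (median difference −0.04), and that median turned to between 0.00 and 0.02 under the 3 other scalings and to 0.06 without knock-in replicate 2, and limma called 0, while 1 passed 0.05 upward and 0 downward before adjustment. Cebpa, also a factor of fat cells, read 7.96 and 7.94 in wild-type and 8.30 and 8.42 in knock-in hearts, a difference of 0.41 (95% interval 0.15 to 0.67). Hnf4a lay at 0.18 with other probe sets from −0.17 to 0.19, Nr1i3 at 0.13, Ppara at 0.06, Prox1 at 0.04, Nr0b2 at 0.01 and Foxa1 at −0.01. Foxa2, Foxa3 and Nr1i2 each lay at −0.07, Nr1h4, the bile acid receptor gene, at −0.10, Nr5a2 at −0.12, Cebpb at −0.19 and Onecut1 at −0.28. The sign was turned in the other probe sets of Onecut1 (0.03) and Ppara (−0.12 and −0.06), and it was mixed in those of Prox1 (−0.12 and 0.35) and Nr5a2 (from −0.22 to 0.06). Foxa1, Foxa2, Foxa3, Nr1i3 and Nr1h4 lay below the array medians on all 4 arrays.

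Secreted proteins of the hepatocyte were higher along with the enzymes. All 23 measured plasma protein genes were higher, 21 with no overlap (22.5% of all genes), with a median difference of 1.13 against 0.20 for the enzymes, and knock-in replicate 1 was above replicate 2 in 23 of 23. Limma called 0 of them, while 18 passed 0.05 upward and 0 downward before adjustment, beside 992 upward and 866 downward of all 18193 genes. The 6 measured hepatocyte markers of 8 listed were all higher, but all 6 are also among the 23 plasma protein genes. Of the 6, only Apob, with a difference of 0.96, had a limma interval that included 0 (−0.04 to 1.95). The other Apob probe set lay at 0.003. The summed linear signal of the 6 markers was 642 and 373 on the wild-type arrays and 4119 and 1685 on the knock-in arrays. Sums over the 33 enzymes were 4133 and 4117 against 7175 and 5385. Hpx, which carries haem in plasma, differed by 2.87 and Rbp4, which carries retinol, by 2.03. The part of these markers in the enzyme result was not tested.

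Hepatocytes near the portal vein and near the central vein use different enzymes. Of 9 measured periportal genes, 7 of them members, 7 were higher, with a median of 0.18, and of 10 pericentral genes, 3 of them members, 8 were higher, with a median of 0.19. Without the members the medians were −0.01 over 2 periportal and 0.17 over 7 pericentral genes. With members, and a mean of 6 or more required, the medians were 1.11 over 3 periportal and 0.16 over 6 pericentral genes. That mean is taken over all arrays. Cps1, Cyp2f2 and Cyp3a11, with wild-type means of 5.82, 5.81 and 4.64, passed only through their knock-in values. Nothing is therefore read from the filtered medians. The difference between the periportal and pericentral sets was not tested. Outside the members the pericentral gene Rgn, a calcium-binding lactonase, differed by 0.75 and Slc1a2, a glutamate transporter, by −0.28, while Glul, glutamine synthetase, and Oat, ornithine aminotransferase, which are bright in heart, lay at 0.20 and 0.11. The periportal genes Hal and Hsd17b6, a hydroxysteroid dehydrogenase, lay at 0.20 and −0.21, with 0.06 by the other Hsd17b6 probe set. Limma called 0 in either set, while 3 in each passed 0.05 upward and 0 downward before adjustment. Without the members, which were chosen on this contrast, 0 of 2 periportal and 1 of 7 pericentral genes passed upward.

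Markers of other cells and organs, some of which share these enzymes, had list medians between −0.23 and 0.17. Of 5 kidney tubule markers 1 was higher, with a median of −0.05 that turned to between 0.01 and 0.04 under the 3 other scalings, and of 5 intestine markers 3 were higher, with a median of 0.02. All 4 cholangiocyte markers were lower, with a median of −0.12, and of 2 liver endothelium markers Stab2 lay at 0.04 and Clec4g at −0.49, with 0.16 by its other probe set. Of 4 Kupffer cell markers Vsig4, which other macrophages also express, lay at 0.68, while Clec4f, the most specific, lay at −0.03. The fat marker Adipoq read 5.23 and 5.30 in wild-type and 5.13 and 6.89 in knock-in hearts, high on knock-in replicate 2 alone, and the fat list had a median of 0.17 that turned to −0.14 without that array and to −0.07 without wild-type replicate 2. Cardiomyocyte markers had a median of 0.04 that turned to −0.01 after quantile normalisation, and no member of these lists was called by limma.

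The remaining lists held stellate cell, pancreas and skeletal muscle markers. Of 3 stellate cell markers Reln lay at 0.22 (−0.20 by its other probe set), Rgs5 at −0.09 and Lrat at −0.35. The 2 measured pancreas markers, Cela1 and Cpa1, lay at 0.08 and −0.10. Of 4 skeletal muscle markers Acta1, an actin that the heart also expresses, lay at 0.49, and Mylpf, Myh4 and Tnnt3, which are closer to skeletal muscle alone, at −0.23, −0.19 and −0.06.

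**Figure D5:**
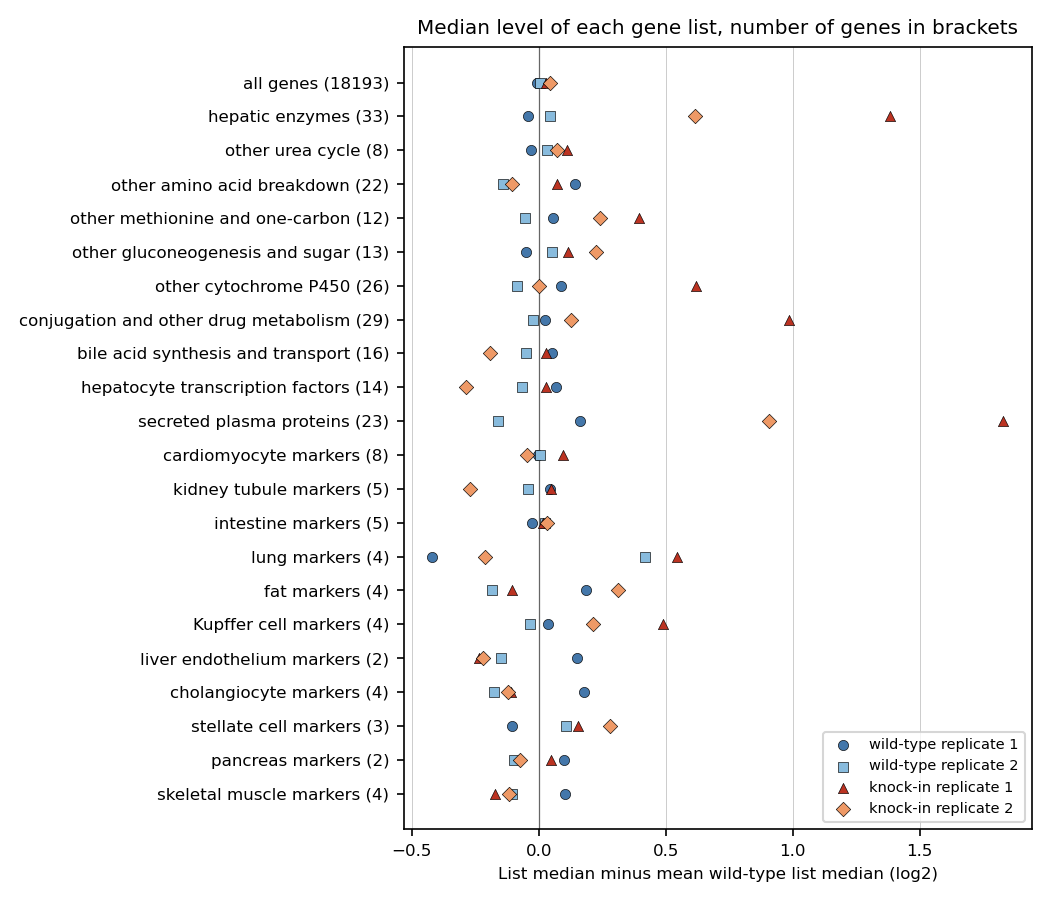
Median log2 level of each gene list on each of the 4 arrays, minus the mean of the wild-type list medians (x axis, log2), for all genes, the hepatic enzymes and the comparison lists (y axis, number of genes in brackets). Secreted plasma proteins and the enzymes have both knock-in points to the right of both wild-type points. Their knock-in medians are 7.70 and 6.77 for the plasma proteins and 7.002 and 6.24 for the enzymes. The same order holds for all genes (7.307 and 7.319 against 7.342 and 7.355). It also holds for several other lists, among them conjugation, sugar handling and Kupffer cell markers. A median level can move further than the median difference of 0.20 because different genes stand in the middle.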

How the data were processed

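Heart RNA was measured on 4 arrays, 2 wild-type and 2 GSK-3alpha S21A knock-in. The deposited values are log2 signals, 1 per probe set, made by the authors with RMA; the submitters' processing notes name Affymetrix Expression Console as the software. These 4 arrays shared 1 normalisation, without others of the series, per the labels, which also say that the wild-type scans serve a second deposited set with its own normalisation. RMA sets the probe intensities of the arrays to a common distribution, so a change shared by most genes is largely removed. The medians of the deposited probe set values still differed, at 6.23 and 6.19 in wild-type and 6.16 and 6.14 in knock-in hearts. The version is not given in the sources used here.

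Of 45101 probe sets, 64 controls were left out and 45037 entered a limma model (version 3.58.1, R 4.3.3; lmFit, eBayes, no covariate, Benjamini-Hochberg, threshold 0.05). The fit had 2 residual degrees of freedom and a prior of 4.54, and the median standard error was 0.12. The small number of arrays limits the precision. Genes were named from the array's annotation table: 34945 probe sets had 1 symbol, 932 several and 9160 none, and 1 probe set naming a member among several genes was not used. A gene was represented by its probe set of highest mean, and every probe set of a member is reported where it has several. Named genes are all members, up to 4 genes of largest difference per list, all isozyme pairs and all transcription factors, and genes outside this rule were chosen after their values were seen.

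The members and lists were chosen with earlier results of these data known. No set test was run. The fit was tested on simulated data. Alternatives covered the eBayes prior, filters on dim or shared probe sets, scaling, weights per array, a block for the replicate number, single arrays left out, the threshold and the probe set per gene. Same-numbered samples deviated together with a correlation of 0.08 in only 2 pairs, so the numbers were not taken to pair them. Promoter sequences came from RefSeq, build GRCm38.p6.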

Additional observations from a re-analysis of the deposited data

How the results depend on the processing

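Limma called 3 probe sets higher, against 1 where a mean signal of 7 or more was required, 11 with the arrays shifted to 1 median, 5 at an adjusted p under 0.1, and 0 (without knock-in replicate 1) to 2 with 1 array left out; 0 were lower in each of these. With the replicate number as a block limma called 4 probe sets and no enzyme. In this balanced design the block cannot change the differences, so the count of higher enzymes is not set beside it. Where a mean of 6 or more over the 4 arrays was required, only 18 enzymes were measured, of which 15 were higher. With 7 or more these were 9 and 8, and the lower counts come from fewer genes tested. Cyp3a11, Fabp1, Fbp1, Cps1 and Cyp2f2 had wild-type means below 6 and passed that filter only through their knock-in values. Asl and Hpd passed the filter of 7 in the same way. Nothing is therefore read from the share that was higher under these filters. The median difference over the enzymes ran from 0.16 without knock-in replicate 1 to 0.51 with means of 6 or more. The array medians of the enzymes (7.002 and 6.24 on the knock-in arrays) were too far apart to judge such moves. With 1 array left out, 23 to 28 were higher, and the lone array is then assumed to vary like the other group. Leaving an array out cannot make separate groups overlap, so no count without overlap is given there. Of single differences and list medians, 55 moved beyond the replicate spread and 682 did not. Many of the 682 could not move. Array weights and the replicate block left the differences as they were, and the filters mostly kept the same probe set. Leaving out 1 array cannot shift a gene's difference beyond that spread. The count is therefore no measure of robustness. Arrays with no detection calls do not separate a dim transcript from background.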
